A study of Mus musculus with 2 samples.

Results

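Corneal stromal keratocytes are the resident cells of the corneal stroma. In single-cell libraries of the mouse anterior eye segment, 5154 of 21724 cells were taken as keratocytes, 1961 of 10789 in the control library and 3193 of 10935 in the NC-Foxc2-/- library. A cell was taken when mitochondrial genes held at most 8% of its UMIs (unique molecular identifiers, 1 for each captured transcript), when it had at least 1000 UMIs, and when Kera reached 5 and A2m 20 per 10,000 of its UMIs. It also had no UMI of Ptprc or Cdh5, which mark leukocytes and endothelium, and fewer than 30 UMIs of the corneal epithelial keratin Krt12 per 10,000. Kera, A2m, Krt12, Ptprc and Cdh5 therefore chose the cells, and their levels below are a description.

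The study asked how deletion of the transcription factor gene Foxc2 in the neural crest alters the anterior segment and its aqueous humor drainage. Control mice carried Foxc2 flox/flox alleles without Cre, and NC-Foxc2-/- mice carried Foxc2 flox/flox with Wnt1Cre, a transgene that recombines in the neural crest and its descendants. Both groups were of mixed strain and labelled 4 weeks old, whereas the paper's methods give an age of 3 to 4 weeks for both. Eyes of 4 to 6 mice were pooled before the anterior segment, with the iris removed, was made into 1 library per group, and the NC-Foxc2-/- mice had been chosen for a moderate ocular phenotype. With 1 pooled library per genotype no difference could be tested against the spread between animals. Every interval is a 95% exact interval that covers counting error only, and genotype, pool, dissection and library cannot be told apart.

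The corneal stroma is a transparent matrix of thin, evenly spaced collagen fibrils. Keratocytes, which descend from the neural crest, make that matrix: fibrillar collagens, and the small leucine-rich proteoglycans lumican, keratocan and decorin that bind the fibrils and, as keratan or dermatan sulfate proteoglycans, hold their spacing. They also store soluble enzymes known as corneal crystallins, such as the aldehyde dehydrogenase ALDH3A1 and transketolase. The healthy cornea is free of vessels, and keratocytes secrete both growth factors and inhibitors of vessel growth.

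Levels are given in CPM, the UMIs of a gene per 1000000 UMIs summed over the keratocytes of a library. Where a pair of levels or percentages is given, the control value comes first and the NC-Foxc2-/- value second. The keratocytes held 32564844 UMIs in control and 44948656 in NC-Foxc2-/-, with a median of 16036 and 14257 UMIs and of 3498 and 3265 genes per cell. The NC-Foxc2-/- keratocytes had a longer shallow tail: 316 of them (9.90%) had under 5000 UMIs, against 27 (1.38%) in control, and these shallow cells held 1.43% and 0.208% of the summed UMIs. The median mitochondrial share was 1.65% in NC-Foxc2-/- and 1.88% in control. The libraries shared 52 barcodes, of which 5 were keratocytes in both.

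Cells lay on both sides of the thresholds. Kera lay between 5 and 10 per 10,000 in 13 control and 94 NC-Foxc2-/- keratocytes, and 2 and 26 cells that met every other condition had Kera between 2 and 5. A2m lay between 20 and 40 in 228 and 180 keratocytes, and between 10 and 20 in 48 and 27 cells that met the other conditions. Further out, 53 and 144 cells that met the other conditions had A2m under 10, and 13 and 77 had Kera under 2. The exclusions removed 21 and 41 cells with a Ptprc UMI, 27 and 54 with a Cdh5 UMI, and 46 and 18 with high Krt12.

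The cells carried known keratocyte genes. Among Kera, A2m, Lum and Ptgds, the markers named for the type, Ptgds was the exception. Lum, which encodes lumican and did not choose the cells, stood at 6148 and 4835 CPM, against 517 and 867 CPM in all other kept cells. The crystallin gene Aldh3a1 stood at 1982 and 1681 CPM and the crystallin gene Tkt at 771 and 733 CPM. Over 10 keratocyte markers, these crystallin genes among them, the summed level was 25218 and 25811 CPM in keratocytes. The 10 include Kera, at 4765 and 3705 CPM, and A2m, at 7619 and 10658 CPM, which chose the cells. Of the 10 markers, 8 had a ratio of NC-Foxc2-/- over control below 1 and 2 above. In cells gated as corneal epithelium by Krt12 the summed level was 18024 and 13530 CPM, so the markers as a set were not particular to keratocytes. Chst5, a sulfotransferase of keratan sulfate synthesis, stood at 293 and 204 CPM, against 49.4 and 15.1 CPM in the other cells. Ptgds, the lipocalin-type prostaglandin D synthase, went against the label: it stood at 26.4 and 13.4 CPM, below the 463 and 126 CPM of the other cells. The median keratocyte had Lum at 62.0 and 46.5 per 10,000 UMIs in control and NC-Foxc2-/-, and Ptgds at 0 in both.

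**Figure D1:**
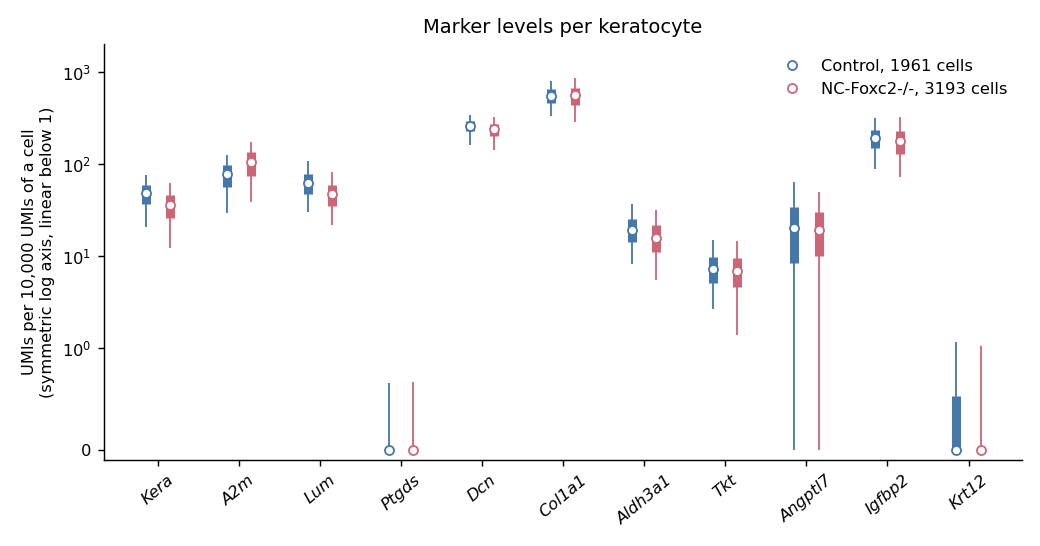
UMIs per 10,000 UMIs of a cell (symmetric log axis, linear below 1) for 11 genes in the keratocytes of the control (blue) and NC-Foxc2-/- (red) libraries. Circles are medians over cells, thick bars the middle 50% of cells and thin lines the 5th to 95th percentile; Kera and A2m chose the cells, and Ptgds has a median of 0 in both libraries.

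The genes that stood out most from the other kept cells were matrix genes, together with less familiar ones. By the lower of the enrichments in the control and NC-Foxc2-/- libraries, Fgf21, an endocrine fibroblast growth factor, led the list at 20.3-fold: it stood at 208 and 199.7 CPM, against 8.08 and 9.84 CPM elsewhere. Behind Fgf21, Kera and A2m came Colgalt2, a collagen galactosyltransferase, at 15.1-fold, and Angptl7, a secreted angiopoietin-like protein, at 14.8-fold. Further members of the leading 15 were Spon1, Pantr1, Syt6, the collagen lysyl hydroxylase gene Plod1, Arsj, the matrilin gene Matn4, the collagen genes Col5a1 and Col6a3, the neurotrophin receptor gene Ntrk2 and Tmem132c, down to 9.71-fold. These values describe the gate, since cells chosen by Kera and A2m also carry what goes with these genes.

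By summed counts, which come from the 3′ ends of transcripts and are not scaled by length, the collagen I genes Col1a1 (54362 and 55724 CPM in control and NC-Foxc2-/-) and Col1a2 (42578 and 35503 CPM) were among the 15 most abundant. The others included the matricellular gene Sparc, the decorin gene Dcn, and Igfbp2, a binding protein of insulin-like growth factors. Igfbp2 stood at 19387 and 19239 CPM, a ratio of NC-Foxc2-/- over control of 0.992 (0.989 to 0.996), so that the libraries were close to level for this abundant secreted product.

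Keratocytes made up 18.2% (17.5% to 18.9%) of the kept control cells and 29.2% (28.3% to 30.1%) of the kept NC-Foxc2-/- cells, a ratio of 1.61. Other parts of the dissection differed in share as well: the corneal epithelial gate, cells with Krt12 of at least 30 per 10,000 and no Kera UMI, was 11.9% of the control library and 2.86% of the other. Among kept cells with Col1a2 of at least 5 per 10,000, which leaves out most epithelium, keratocytes were 33.0% and 40.6%, a ratio of 1.23. A share depends on the gate and on what else was dissected and survived digestion, and the number of keratocytes per eye was not measured. The gate gene A2m itself stood at 7619 and 10658 CPM in keratocytes, a ratio of 1.40 (1.39 to 1.41). The ratio of the shares was 1.68 with a stricter gate and 1.59 with a looser one, and the part of A2m in it was not tested.

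Foxc2 (chr8:121116171-121118895, mm10) was scarce in keratocytes. It stood at 5.16 CPM (4.41 to 6.00, 168 UMIs) in control keratocytes and 9.46 CPM (8.58 to 10.4, 425 UMIs) in NC-Foxc2-/- keratocytes, a ratio of 1.83 (1.53 to 2.20). Split by sex, the ratio was 2.38 (1.83 to 3.12) in male keratocytes and 1.04 (0.755 to 1.46) in female ones. In other gated stromal and mural cells the order was the other way: in the fibroblast gate (Pi16 and Clec3b) Foxc2 had 99 UMIs in control and 0 in NC-Foxc2-/-, and in the pericyte gate (Rgs5 with Kcnj8 or Abcc9) it stood at 103 and 5.56 CPM. Over all other kept cells it stood at 16.0 and 4.02 CPM, lower in NC-Foxc2-/-, which is the direction of the labels. Its paralog Foxc1, also a forkhead factor of the anterior segment, stood at 147 and 171 CPM in keratocytes. The counts are of 3′ ends, and whether they lie in the part that Cre removes was not determined, so the keratocyte value does not check the deletion in these cells.

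**Figure D2:**
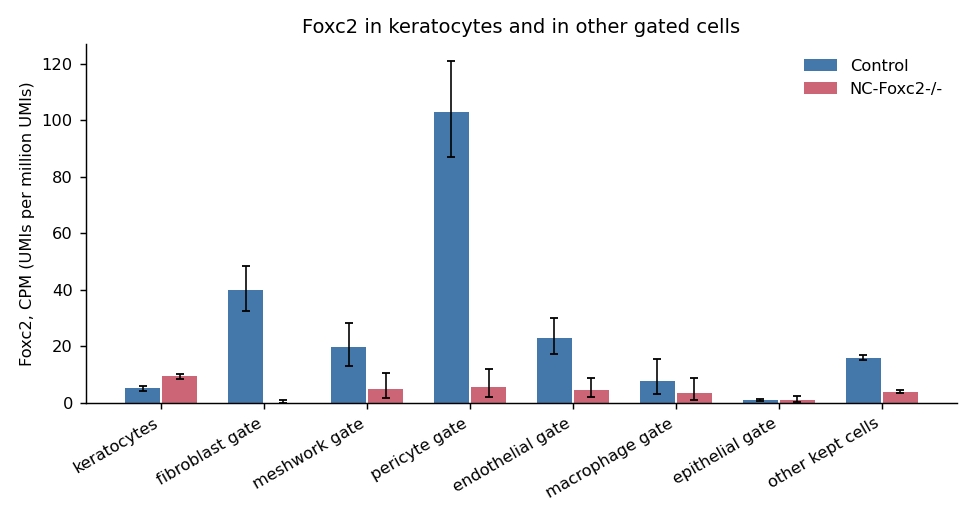
Foxc2 in CPM, the UMIs of Foxc2 per 1000000 summed UMIs, in keratocytes, 6 other gated cell groups and all other kept cells of the control (blue) and NC-Foxc2-/- (red) libraries; lines are 95% exact Poisson intervals. Keratocytes stand at 5.16 and 9.46 CPM, whereas the fibroblast, meshwork, pericyte and endothelial gates are lower in NC-Foxc2-/-.

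Between the libraries, most genes of the keratocytes differed by less than 2-fold. Of 12913 genes with at least 50 UMIs over both libraries, 289 (2.24%) had at least a 2-fold higher CPM in NC-Foxc2-/- and 270 (2.09%) a CPM at most 0.5 of control, and the median log2 ratio was -0.01. Both directions came to 4.33%, and 48.9% of the genes had a ratio above 1. At the looser limit of 1.5-fold, 962 genes (7.45%) were higher and 1022 (7.91%) lower. Most of the 2-fold genes were rare transcripts: of the 1463 genes at 100 CPM or more in the higher library, 15 (1.03%) were at least 2-fold higher and 3 (0.205%) at most 0.5 of control, while 6.49% were at least 1.5-fold higher and 3.28% at most 1/1.5. These limits are rules of size and carry no test. Each count of list members past 2-fold below stands beside these 2.24% higher and 2.09% lower of all tested genes.

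Part of the lower genes were far more abundant in other gated cells. Of the 270 lower genes, 113 (41.9%) were at least 10 times higher in the epithelial gate than in the keratocytes of the control library, against 333 (2.58%) of all 12913 tested genes, and 52 (19.3%) reached 10 CPM in control keratocytes, against 54.2% of all. Of the 289 higher genes, 8 (2.77%) were at least 10 times higher in the epithelial gate of the NC-Foxc2-/- library, as were 2.77% of all tested genes. Of the 16 corneal epithelial markers, 14 were at most 0.5 of control in keratocytes, and the summed level of the 16 was 516 and 157 CPM. The 16 include Krt12, which the rule for keratocytes capped. Krt15, a limbal keratin, stood at 88.3 and 2.54 CPM, whereas Epcam stood at 54.0 and 57.2 CPM. All 4 tested melanocyte markers were lower too, at 35.1 CPM summed in control and 7.16 CPM in NC-Foxc2-/- over the 5 markers. The summed markers of macrophages stood at 134 and 116 CPM, those of fibroblasts at 255 and 194, of the meshwork at 211 and 252, of corneal endothelium at 334 and 251, of pericytes at 13.5 and 27.6, of smooth muscle at 73.9 and 53.3, of vascular endothelium at 41.1 and 60.4, of Schwann cells at 18.9 and 12.4 and of erythroid cells at 2168 and 2402 CPM. Those of lymphocytes and of the lens were under 2 CPM in both libraries. The macrophage and vascular endothelial sums include Ptprc and Cdh5, of which the rule allowed no UMI. In keratocytes without any UMI of Krt5, Krt12 or Krt14 (1031 and 2212 cells) 127 genes were lower and 272 higher. The part of this RNA in any single gene's ratio was not tested.

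**Figure D3:**
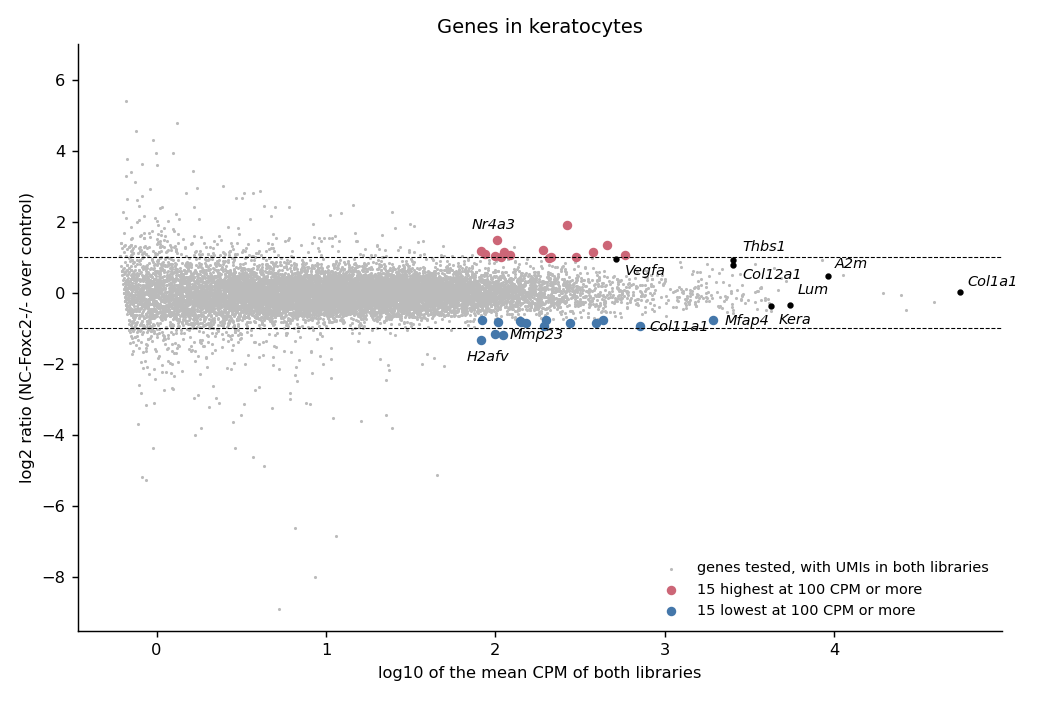
log2 ratio of NC-Foxc2-/- over control in keratocytes (vertical) against log10 of the mean CPM of both libraries (horizontal) for the tested genes with UMIs in both. Red and blue points are the 15 highest and 15 lowest ratios among genes at 100 CPM or more, black points are named abundant genes, and the dashed lines mark 2-fold; large ratios lie mostly among rare transcripts.

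The genes of the proteoglycan and collagen matrix, which define the stroma, moved by less than 2-fold with few exceptions. Of 20 tested proteoglycan genes, 1 was higher and 0 lower at 2-fold, with a median log2 ratio of 0.08 beside -0.01 over all genes. Kera, Lum and Dcn lie next to each other on chromosome 10 (mm10: Dcn chr10:97479609-97518143, Lum chr10:97565128-97572703, Kera chr10:97606879-97613692), followed by Epyc at chr10:97644068-97682454. Their ratios were 0.778 (0.772 to 0.783) for Kera, 0.786 (0.782 to 0.791) for Lum and 0.958 for Dcn. Kera stood at 4765 and 3705 CPM. Epyc, the epiphycan gene and the member past 2-fold, had 0.154 and 2.34 CPM, levels near the limit of detection. Ogn, the osteoglycin gene, stood at 233 and 315 CPM, and Fmod, the fibromodulin gene, at 763 and 838 CPM.

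Of 23 collagen genes, 4 were at least 1.5-fold higher and 2 at most 1/1.5 of control (7.45% and 7.91% of all genes), with a median log2 ratio of 0.16. Col11a1 (chr3:114030540-114220718), a minor fibrillar collagen that limits fibril width, had the lowest ratio, 0.526 (0.517 to 0.535), at 940 and 495 CPM. Col3a1, collagen III, stood at 878 and 584 CPM, a ratio of 0.665 (0.654 to 0.676). Col12a1 (chr9:79598991-79718831), a collagen of the fibril surface, was higher, at 1855 and 3196 CPM, a ratio of 1.72 (1.71 to 1.74). Col8a2, a short-chain collagen better known from the corneal endothelium's basement membrane, stood at 131 and 243 CPM, a ratio of 1.86. The basement membrane gene Col4a2 had a ratio of 1.51, and Col15a1 rested on 1.32 and 4.72 CPM. The collagen I, V and VI genes, which build the bulk of the stroma, lay between 0.834 for Col1a2 and 1.25 for Col6a1.

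Several of these matrix genes, Col11a1 and Col3a1 among them, had the other direction over all other kept cells. Kera, at 124 and 185 CPM there, Lum, at 517 and 867 CPM, and Col1a2, at 2604 and 5352 CPM, also did so. Col12a1 was higher there as in keratocytes, at 200 and 472 CPM. Col11a1 stood at 57.5 and 86.1 CPM over all other kept cells, and Col3a1 a ratio of 2.22 there. Among the 6 other gates, Col11a1 ran from 0.370 (0.268 to 0.506) in macrophages to 5.08 (3.03 to 8.92) in pericytes, and Col12a1 from 1.57 to 3.85, above 1 in each. Keratocytes were the larger share of the NC-Foxc2-/- library, and the part of free keratocyte RNA in the counts of other gates was not tested. The collagen processing genes, 27 tested, held 0 members past 2-fold: Pcolce, the enhancer of procollagen cleavage, stood at 971 and 711 CPM, the collagen chaperone gene Serpinh1 at 1529 and 1144 CPM, and the crosslinking enzyme gene Lox at 578 and 600 CPM.

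Of the 26 genes for keratan and dermatan sulfate chains, 0 passed 2-fold. Chst5 had a ratio of 0.697 (0.677 to 0.717). Ugdh, which makes the glucuronic acid donor, stood at 138 and 233 CPM. Among the 24 crystallin and redox genes 1 was higher and 1 lower, beside 2.24% and 2.09% of all genes. Their median log2 ratio was -0.20. Aldh3a1 had a ratio of 0.848 and Tkt of 0.950, while Gsta4, a glutathione transferase, stood at 73.9 and 35.5 CPM. Apod, the apolipoprotein D gene, stood at 1238 and 1874 CPM, and Cryab, the alpha B crystallin gene, at 2656 and 3095 CPM.

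Elastic fiber and matricellular genes were evenly split, 14 above and 14 below control. At 2-fold 2 were higher and 1 lower, beside 2.24% and 2.09% of all genes. The microfibril-associated genes Mfap4, Mfap2 and Mfap5 had ratios of 0.595, 0.623 and 0.636. Mfap4 (chr11:61485431-61488900) was the most abundant of them, at 2428 and 1444 CPM. Eln, elastin, stood at 21.4 and 9.77 CPM, but had a ratio of 1.79 once called doublets were left out and of 1.60 in male cells. The calcium-binding matricellular gene Smoc2 was higher, at 200.5 and 402 CPM, a ratio of 2.00 (1.95 to 2.06).

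Genes of wound activation went both ways. Of 32 tested, 1 was higher and 1 lower at 2-fold, beside 2.24% and 2.09% of all genes, with a median log2 ratio of 0.08. Acta2, smooth muscle actin and the usual mark of the myofibroblast, stood at 52.2 and 33.4 CPM, and Spp1, osteopontin, at 154 and 67.6 CPM, a ratio of 0.438 (0.419 to 0.458). Sparc, an abundant collagen-binding protein, had a ratio of 0.712. Ccn2 and Ccn1, matricellular genes known to respond to mechanical load, stood at 78.5 and 164 CPM and at 139 and 275 CPM, with ratios of 2.09 (2.00 to 2.19) and 1.98 (1.92 to 2.05). Thbs1, thrombospondin 1, stood at 1757 and 3322 CPM, a ratio of 1.89 (1.87 to 1.91).

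Secreted regulators of vessels and proteolysis held several of the larger ratios at appreciable levels. Vegfa (chr17:46016993-46032369), the principal vascular growth factor, stood at 350 CPM (343 to 356) in control and 676 CPM (668 to 683) in NC-Foxc2-/- keratocytes, a ratio of 1.93 (1.89 to 1.97). The median keratocyte had 2.77 and 5.41 Vegfa UMIs per 10,000. Of the 23 tested pro-angiogenic genes, 2 were higher and 0 lower at 2-fold, beside 2.24% and 2.09% of all genes. Both were rare, Pgf at 1.38 and 2.83 CPM and Edn1 at 1.29 and 2.76 CPM. The median log2 ratio of the list was -0.19. Fgf2 stood at 50.7 and 83.6 CPM, and Vegfb and Vegfc, relatives of Vegfa, had ratios of 0.634 and 0.761.

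Of the 20 tested anti-angiogenic genes, 1 was higher and 1 lower, beside 2.24% and 2.09% of all genes. Their median log2 ratio was 0.20, with 12 above and 8 below control. At 1.5-fold 5 were higher and 1 lower, beside 7.45% and 7.91% of all genes. Serpinf1, pigment epithelium-derived factor, stood at 4972 and 3470 CPM, a ratio of 0.698 (0.693 to 0.703), and Angptl7 at 2418 and 2236 CPM, a ratio of 0.925. The semaphorin gene Sema3f stood at 46.8 and 98.6 CPM, and Angptl4, the lower member, at 7.09 and 3.23 CPM. The paper counts Angptl4 as pro-angiogenic, so its place in this list is open to question. F3, tissue factor, which starts coagulation, stood at 105 and 202 CPM. Of 30 proteases and inhibitors, 2 were higher and 3 lower, beside 2.24% and 2.09% of all genes. The inhibitor gene Reck was at 5.25 and 12.7 CPM, and Mmp23, a membrane-anchored metalloproteinase gene, at 138 and 61.8 CPM, a ratio of 0.449 (0.428 to 0.471).

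Cytokine genes held the largest number of members past 2-fold. Of 32 tested, 6 (18.8%) were higher and 0 lower, beside 2.24% and 2.09% of all genes, and the median log2 ratio was 0.36. Within one sex the count was not one-sided: 4 were higher and 3 lower of 27 tested in male cells, and 6 higher and 2 lower of 29 in female cells. Il6 (chr5:30013114-30019981), interleukin 6, stood at 4.39 CPM (3.70 to 5.17) in control and 24.6 CPM (23.1 to 26.0) in NC-Foxc2-/-, and its relative Lif at 71.4 and 143 CPM, with a ratio of 1.07 (0.995 to 1.15) in male cells. Cxcl1, a neutrophil chemokine, stood at 65.0 and 133 CPM, and Tnfaip3, an inhibitor of NF-kappa-B signaling, at 11.5 and 28.6 CPM. The remaining members past 2-fold, Cxcl5 and Saa3, were under 5 CPM in both libraries, and Cxcl5, at a ratio of 2.67 in all cells, had 0.545 in male and 0.975 in female cells. Ptgs2, the inducible cyclooxygenase, was abundant, at 879 and 1596 CPM. Csf3 and Ccl7, also inducible, stood at 122 and 99.0 CPM and at 112 and 115 CPM.

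Of 32 tested Wnt genes, 4 were higher and 1 lower, beside 2.24% and 2.09% of all genes, with a median log2 ratio of 0.34, and 9 were at least 1.5-fold higher, beside 7.45%. Wnt11, a ligand of noncanonical signaling, stood at 142 and 286 CPM, a ratio of 2.01 (1.95 to 2.08). Wnt5a, a ligand of the same kind, stood at 164 and 247 CPM. The secreted antagonist gene Dkk2 stood at 289 and 469 CPM, and the canonical target Axin2 at 3.38 and 6.14 CPM. The co-receptor gene Lrp5 stood at 5.34 and 15.4 CPM, and Wnt9a, Sfrp4 and the lower member Dkk1 were under 6 CPM.

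Of 36 genes of the TGF-beta, BMP and activin families, 0 passed 2-fold, 7 were at least 1.5-fold higher and 0 at most 1/1.5 of control, beside 7.45% and 7.91% of all genes, and the median log2 ratio was 0.29. The ligand Inhba, the inhibitory Smad7 and the co-receptor Tgfbr3 stood at 12.6 and 21.9, 55.3 and 90.6, and 20.1 and 33.8 CPM. The BMP target genes Id1 and Id3 were on the other side, with ratios of 0.790 and 0.851. In the insulin-like growth factor list, with 12 tested, Igf1r stood at 98.6 and 158 CPM, Igfbp3 at 119 and 202 CPM, and the imprinted H19, past 2-fold, at 4.85 and 10.8 CPM.

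Retinoic acid genes held 0 members past 2-fold and 5 of 16 at or below 1/1.5 of control, beside 7.91% of all genes, with a median log2 ratio of -0.17 that became 0.01 without called doublets. Crabp1 (chr9:54764748-54773110), a cellular retinoic acid binding protein, stood at 252 and 133 CPM, a ratio of 0.529 (0.511 to 0.547). The responder genes Rarres2 and Dhrs3 stood at 177 and 103 CPM and at 23.5 and 14.1 CPM. Crabp1 had the other direction over the other kept cells, at 9.98 and 23.5 CPM.

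Stress, metabolism and immediate early genes were mixed. The heat shock genes Hspa1a and Hspa1b had ratios of 1.94 and 1.96, while 0 of 24 members of their list passed 2-fold. The metallothionein genes Mt1 and Mt2 stood at 3360 and 5502 CPM and at 1295 and 2270 CPM. Hk2, hexokinase 2, stood at 375 and 793 CPM, a ratio of 2.11 (2.07 to 2.16), whereas Gapdh, of the same glycolysis and hypoxia list, stood at 1234 and 793 CPM, a ratio of 0.643 (0.634 to 0.652). Of 30 immediate early genes 0 passed 2-fold: Fos stood at 234 and 204 CPM and Nr4a1 at 38.5 and 67.3 CPM. Nr4a3, an orphan nuclear receptor of the same kind that is not in that list, stood at 53.3 and 151 CPM, a ratio of 2.82 (2.68 to 2.98). The neural crest and stromal transcription factor genes had a median log2 ratio of 0.03 over 37. At 2-fold 0 were higher and 3 lower, beside 2.24% and 2.09% of all genes. Twist1 had a ratio of 0.973 and Tfap2b of 1.11. The 3 lower ones were Klf5, at 19.1 and 9.46 CPM, Osr2, at 4.18 and 1.51 CPM, and Pax6, the eye field and corneal epithelial factor, at 2.12 and 0.423 CPM. None of these calls held with the stricter gate, without called doublets or without cells holding a UMI of Krt5, Krt12 or Krt14: Klf5 had ratios of 0.636, 0.538 and 0.647 there and Osr2 of 0.684, 0.612 and 1.38, while Pax6 had under 50 UMIs with the stricter gate (0.307) and without doublets (0.173), and 0.796 without keratin-positive cells.

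**Figure D4:**
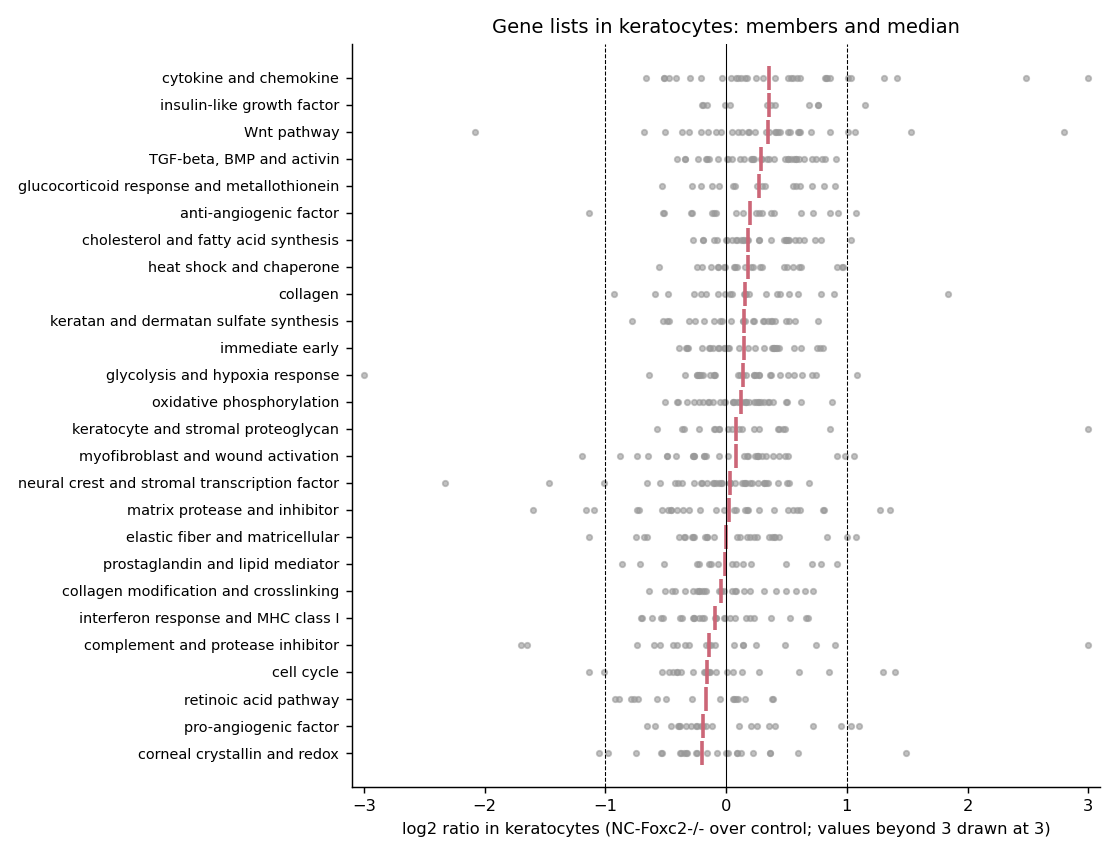
log2 ratio of NC-Foxc2-/- over control in keratocytes for the tested members of 26 gene lists (grey points) and the median of each list (red bar); dashed lines mark 2-fold, and values beyond 3 are drawn at 3. List medians run from -0.20 for corneal crystallin and redox genes to 0.36 for cytokine and chemokine genes.

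Among the 15 highest ratios at 100 CPM or more, several genes were outside these lists. Cemip, a hyaluronan-degrading protein, stood at 50.8 and 114 CPM, a ratio of 2.25 (2.13 to 2.38), and the clock repressor gene Nr1d1 at 69.9 and 155 CPM. Ost4, a subunit of the oligosaccharyltransferase, stood at 235 and 523 CPM. Lars2 and AY036118, at ratios of 2.31 and 2.15, are uncertain: both, like Gm42418, can take reads from ribosomal RNA. Among the 15 lowest, H2afv, a histone variant gene, stood at 118 and 47.4 CPM, a ratio of 0.402 (0.381 to 0.424), and Fibin, C1qtnf2, Ifi27l2a, Map2k2, Gsto1, Tmem176a, Gpx8 and Kcnq1ot1 lay between 0.553 and 0.595. The ratio of Gsto1 was 0.868 in keratocytes without a UMI of Krt5, Krt12 or Krt14.

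Several of these differences were of like size in other cells of the NC-Foxc2-/- library. Ost4 had ratios between 1.73 and 2.57 in the 6 other gates, H2afv between 0.313 and 0.606, and Map2k2 between 0.420 and 0.643. These gates share the libraries with the keratocytes, so they are no independent repeat. Vegfa ran from 1.36 (1.22 to 1.52) in the meshwork gate to 2.44 (2.06 to 2.90) in the endothelial gate, beside 1.93 in keratocytes, and Hk2 from 1.33 to 3.22. Wnt11 ran from 1.68 to 2.64 and Ptgs2 from 1.38 to 3.51. Other genes lay at or beyond the edge of that range in keratocytes: Nr4a3 had 2.82 in keratocytes and at most 1.98 (1.51 to 2.62) elsewhere, and Cemip 2.25 against at most 1.82 (1.07 to 3.12). Mmp23 had 0.449 against 0.524 (0.203 to 1.14) to 1.21. None of these differences between cell types was tested across animals.

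**Figure D5:**
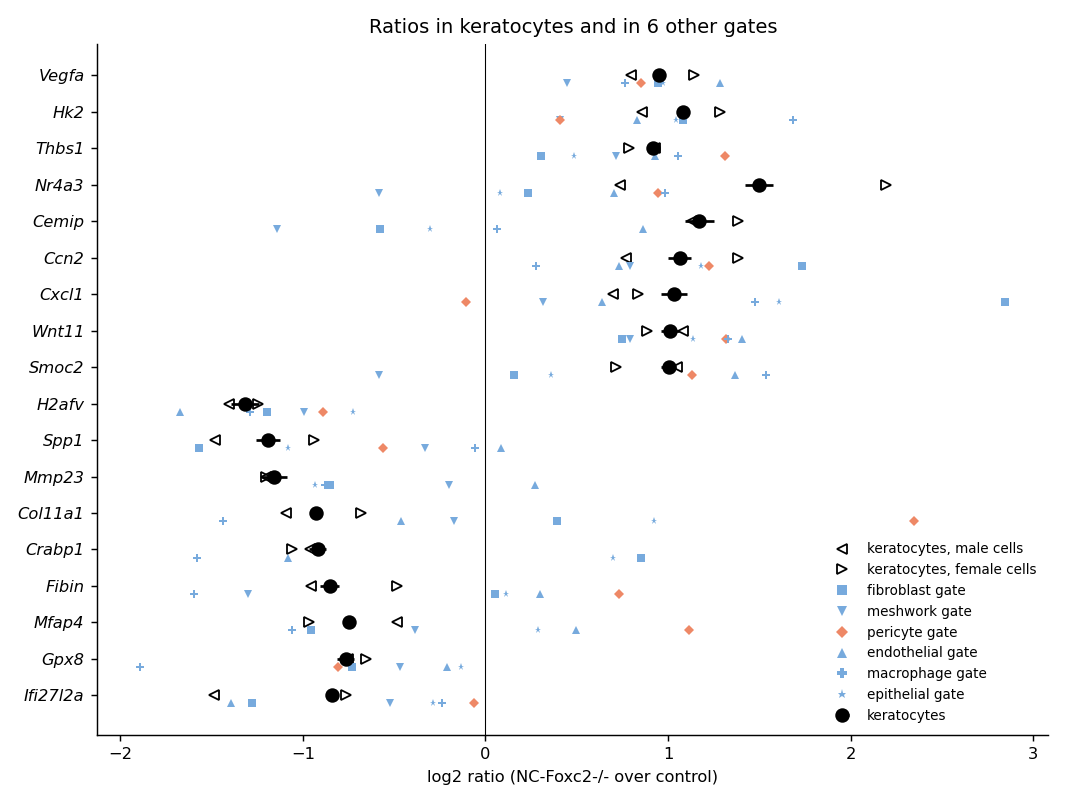
log2 ratio of NC-Foxc2-/- over control for 18 genes in all keratocytes (black circles with 95% counting intervals), in keratocytes called male or female by their Y-linked and Xist UMIs (open triangles), and in 6 other gates with at least 20 UMIs (small symbols). H2afv lies below 0 in every gate shown, Vegfa and Hk2 lie above 0 in every gate, and Col11a1 and Crabp1 lie below 0 in keratocytes and on either side elsewhere.

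The pools differed in sex. Xist, the RNA of the inactive X chromosome, stood at 74.8 and 183 CPM, and the Y-linked Ddx3y at 73.3 and 46.5 CPM. Keratocytes with a Y-linked UMI and no Xist UMI were 1242 (63.3%) of the control and 996 (31.2%) of the NC-Foxc2-/- cells, and those with Xist and no Y-linked UMI 324 (16.5%) and 1587 (49.7%). They are called male and female cells here. A further 57 and 130 keratocytes had both kinds of UMI and 338 and 480 had neither, and these were left out of the split. Within each sex the sides of 1 were kept by the 15 highest and 15 lowest genes, but sizes differed for some. Vegfa had ratios of 1.74 in male and 2.21 in female cells and Col11a1 of 0.468 and 0.622. Lif had ratios of 1.07 (0.995 to 1.15) in male and 3.59 (3.16 to 4.09) in female cells, Nr4a3 of 1.67 and 4.57, and Il6 of 2.61 and 8.91. How many animals of each sex were pooled is not known, so that each sex of a pool may rest on few animals.

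Among keratocytes of 1 library, several inducible genes were among the most variable, but Gm42418, which can take reads from ribosomal RNA, ranked first in both libraries. After each cell was thinned to 1000 UMIs, the Fano factor, the variance over the mean across cells, had a median of 1.02 in control and 1.03 in NC-Foxc2-/-, where counting alone gives 1. Cryab had 8.52 and 8.83, Hspa1a 8.32 and 10.5, the monocyte chemokine gene Ccl2 6.57 and 7.70, and Mt1 5.14 and 7.32. These and Hspa1b, Malat1 and Gm42418 were the 7 genes among the 10 most variable in both libraries. The control list also held Gal, the neuropeptide galanin, with 7.07 in control and 4.26 in NC-Foxc2-/-, Fos with 5.51 and 3.87, and Spp1 with 4.98 and 2.38. The NC-Foxc2-/- list also held Col1a1 with 6.03, Cxcl2 with 6.03 and Hspb1 with 5.39 in that library. The Fano factors of Gm42418 were 9.65 and 19.2 and those of Malat1 5.01 and 10.8, and in cells under 5000 UMIs of the NC-Foxc2-/- library both were high, at 30967 and 22028 CPM, against 10852 and 13059 CPM in its deeper cells. By contrast Vegfa had 1.16 and 1.33.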

How the data were processed

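The authors made 10x 3′ (v3.1) libraries, sequenced them on an Illumina HiSeq and, per the labels' processing notes, made the deposited count matrices (UMI counts per gene and barcode, mm10) with Cell Ranger 4.0.0. No source used here names their gene annotation release. The control matrix held 11285 barcodes and 120961479 UMIs, the NC-Foxc2-/- matrix 11656 and 95704746. A series-level table was not used here. Kept cells had at most 8% mitochondrial UMIs, and 1000 UMIs were required in every gate. A cell meeting the keratocyte rule and that of another gate (20 in the pericyte gate, 3 in the erythroid gate) was counted as a keratocyte. Doublets were called with Scrublet (scanpy 1.11.5; 6.78% of control and 7.55% of NC-Foxc2-/- keratocytes) and kept, with an alternative without them.

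UMIs were summed over cells and divided by the summed total. Intervals are exact Poisson for CPM, exact binomial (Clopper-Pearson, scipy 1.17.1) for shares, and conditional exact binomial for ratios, and cover counting error only. Genes needed 50 UMIs over both libraries; with 1 library per genotype no test was run. Named genes were the fixed markers and list members, the 15 genes of highest and the 15 of lowest ratio with at least 100 UMIs and 100 CPM (Xist, Y-linked, mitochondrial, ribosomal protein and hemoglobin genes left out), the 15 most abundant, the 15 most enriched and the 10 with the highest Fano factor. F3 was picked after its values were seen. Some genes that met the rule are not reported here. Members and all 26 gene lists were chosen with earlier results of these data known. Gene positions are from GENCODE M21 (mm10), matched by Ensembl ID. Scripts were tested on simulated counts. Alternatives covered the gates, depth, doublets, scaling, weighting, epithelial RNA, count minimum and fold, and, added after seeing the data, male and female cells alone.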

Additional observations from a re-analysis of the deposited data

Results flagged for a closer look

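Among Foxc2 and the 15 highest and 15 lowest genes, for 6 the ratio of NC-Foxc2-/- over control in keratocytes and that in another gate lay on opposite sides of 1 by at least 1.5-fold, each with a counting interval that leaves out 1. Members of the gene lists outside this set also did so, such as Ccn5, picked after its values were seen, with 2.11 in keratocytes and 0.249 (0.183 to 0.336) in the fibroblast gate. With 1 library per genotype these differences between cell types were not tested. Foxc2 had 1.83 in keratocytes, though 1.04 (0.755 to 1.46) in female keratocytes alone, and 0.247 (0.0835 to 0.607) in the meshwork gate, 0.0540 (0.0195 to 0.120) in the pericyte gate and 0.205 (0.0892 to 0.418) in the endothelial gate. In the fibroblast gate, where NC-Foxc2-/- held 0 UMIs of Foxc2, the floor of 3 UMIs gives a ratio of 0.0243, with a counting interval of 0 to 0.0305. Col11a1 had 0.526 in keratocytes, 5.08 (3.03 to 8.92) in the pericyte gate and 1.90 (1.20 to 2.93) in the epithelial gate, where it stood at 2.71 and 5.14 CPM. Mfap4 had 0.595 in keratocytes and 2.16 (1.67 to 2.81) in the pericyte gate. Crabp1 had 0.529 in keratocytes. In the pericyte gate it had 0 control and 5 NC-Foxc2-/- UMIs. There the floor of 3 UMIs gives a ratio of 2.23, with a counting interval that starts at 1.23 and has no upper limit. Cemip had 2.25 in keratocytes and 0.453 (0.219 to 0.884) in the meshwork gate, and Nr4a3 2.82 and 0.667 (0.512 to 0.863). In the pericyte gate the keratocyte genes A2m and Angptl7 were higher in NC-Foxc2-/- too, with ratios of 10.4 and 30.2, and the part of keratocyte RNA in its values was not tested.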

How the results depend on the processing

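No paired analysis was possible because each genotype has 1 library. Leaving out a library was not possible for the same reason. The number of genes at least 2-fold higher, 289, became 160 with each cell thinned to 1000 UMIs, 769 and 131 with a minimum of 10 and 200 UMIs, 962 at 1.5-fold and 183 in male cells. The 270 lower genes became 74, 733, 103 and 1022 under the same thinning, minima and fold, and 127 without cells holding a UMI of Krt5, Krt12 or Krt14. Thinning and the split by sex leave fewer genes past the minimum. The called genes were only partly the same. Of the 289 higher genes, 124 were also called in male cells, 125 in female cells and 52 with thinning. Of the 270 lower genes, these numbers were 126, 63 and 14. The share of keratocytes became 16.0% in control and 26.9% in NC-Foxc2-/- with the stricter gate, 33.0% and 40.6% among cells with Col1a2, and 28.2% in NC-Foxc2-/- without doublets. Of the list medians (log2), the protease list moved to 0.47 and the Wnt list to 0.66 with thinning, the glycolysis and hypoxia list to 0.38 in female and -0.02 in male cells, the interferon list to -0.33 in male cells and the cell cycle list to 0.11 without keratin-positive cells. The insulin-like growth factor list went from 0.35 to 0.05 in female cells, and the wound list from 0.08 to -0.15 in female cells and 0.25 without doublets. Of the 26 medians, 12 lay on the other side of 0 under at least 1 alternative. The lower calls of the cell cycle, elastic fiber and glycolysis lists ended under 5 alternatives each, those of the Wnt, crystallin and transcription factor lists under 4 and those of the anti-angiogenic list under 3. Eln changed sides, to 1.79 without doublets, 1.60 in male cells and 1.05 with thinning, and Cxcl5 had 0.545 in male and 0.975 in female cells against 2.67 in all; Osr2, 0.362 in all, had 1.38 without keratin-positive cells and 1.12 by mean CPM per cell; the cause was not tested. Foxc2 (1.04 in female cells, 2.98 with thinning), Lif (1.07 in male, 3.59 in female cells), Nr4a3 (1.67 and 4.57), Il6 (2.61 and 8.91), Gsto1 (0.868 without keratin-positive cells) and Ifi27l2a (0.357 in male cells) moved by over 1.5 times; Il6 also reached 12.5 with thinning. The 15 highest and 15 lowest genes kept their side of 1 under all 10 alternatives. Depth limits rare transcripts: Il6 rests on 143 control UMIs and Epyc on 5.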

Other observations

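Further gene groups of keratocytes had few members past 2-fold. Of 36 nuclear-encoded oxidative phosphorylation genes, 0 were higher or lower, with a median log2 ratio of 0.12: the complex I subunit gene Ndufa1 stood at 209 and 384 CPM in control and NC-Foxc2-/-, Cox7c at 616 and 946 CPM and Cox5a at 273 and 207 CPM, so that subunits of the same chain lay on both sides. Of 29 cholesterol and fatty acid synthesis genes, 23 had a ratio above 1 and 1, the desaturase gene Scd1 at 32.5 and 66.5 CPM, passed 2-fold. The glucocorticoid response and metallothionein list, with 16 tested and 0 past 2-fold, had a median log2 ratio of 0.27, and Glul, glutamine synthetase, stood at 90.6 and 169 CPM.

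Of 27 interferon response and MHC class I genes, 0 passed 2-fold and the median log2 ratio was -0.09. Isg15, an interferon-induced ubiquitin-like protein, stood at 52.6 and 32.2 CPM, and B2m, the light chain of MHC class I, at 356 and 459 CPM. Among 21 complement and protease inhibitor genes 1 was higher and 2 lower, beside 2.24% and 2.09% of all genes. The complement gene C3, with 0.553 and 4.41 CPM, was the higher one, and C1s1, a complement protease, stood at 184 and 308 CPM. The 16 prostaglandin and lipid mediator genes held 0 past 2-fold, with a median log2 ratio of -0.01, Ptgs1 at 13.9 and 26.4 CPM and Plpp1 at 232 and 141 CPM. Proliferation genes were rare in both libraries: Mki67 stood at 1.29 and 1.13 CPM, while the cell cycle inhibitor Cdkn1a stood at 588 and 612 CPM. Of 23 cell cycle genes 2 were higher and 2 lower, beside 2.24% and 2.09% of all genes. The lower count was 0 under the stricter gate, without called doublets, without keratin-positive cells and in male cells.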
